A study of Homo sapiens with 8 samples.

Results

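AP-1 is a family of dimeric transcription factors, and it was followed here together with other genes that cells switch on within minutes of a stimulus. The set was taken by gene symbol and holds 10 of the 20453 genes in the count tables: the JUN family (JUN, JUNB, JUND), the FOS family (FOS, FOSB, FOSL1, FOSL2), the zinc finger factor EGR1, the immediate early gene IER2 and ZFP36L2, which encodes an RNA-binding protein of the tristetraprolin family. All 10 gene IDs are listed for each of the 8 libraries, FOSB with no count in some. Cells labelled THP-1, a human acute monocytic leukaemia line, had been transduced with mutant DNMT3A or with wild-type DNMT3A, so that both arms carry an introduced copy of this DNA methyltransferase gene. Whether the cell's own DNMT3A copies were still present, which promoter drove the introduced copy and whether a single clone was used are not stated in the labels. Each genotype was measured by RNA-seq (mRNA) and by ribosome profiling, which counts the short mRNA fragments that ribosomes shield from nuclease (footprints). There were 2 libraries in each of the 4 groups: mutant mRNA, wild-type mRNA, mutant footprints and wild-type footprints. The labels do not say that the libraries came from separate cultures, so the spread behind each p-value is that among these libraries and may be only technical.

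JUN proteins pair with each other or with FOS proteins through a leucine zipper and bind the TRE and CRE motifs, whereas FOS proteins need a JUN partner. Growth factor and stress signals raise the transcription of these genes through MAP kinases, SRF, ETS factors and CREB, and many of their mRNAs carry AU-rich elements that speed their decay. ZFP36L2 and its relatives bind such elements and recruit the deadenylation machinery. In blood cells AP-1 and EGR1 are best known for their part in monocyte and macrophage differentiation.

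Total counts lay between 3415999 and 4523475 in the mRNA libraries, 944824 and 603360 in the mutant footprint libraries and 1611724 and 1988513 in the wild-type footprint libraries. The mutant footprint libraries are thus the shallowest, and their values the least precise. Values are given as CPM, each count scaled to a common library size with TMM factors. The 10 genes together took 0.208% and 0.219% of all counts in mutant mRNA libraries, against 0.232% and 0.237% in wild-type mRNA libraries. In footprints they took 0.137% and 0.148% in mutant libraries, against 0.164% and 0.178% in wild-type libraries. The label was checked against markers. Of 28 monocyte and macrophage markers, 11 had no mRNA count in any of the 4 mRNA libraries, among them S100A8, S100A9, CSF1R and IRF8. At 10 CPM or more were 5 or 6 of the 28 in mutant and 6 in wild-type mRNA libraries. FCGR2A, an Fc receptor gene, had 242 and 265 CPM in mutant libraries, against 235 and 219 CPM in wild-type libraries. The myeloid factor SPI1 had 37.1 and 41.3 CPM in mutant libraries, against 44.9 and 48.0 CPM in wild-type libraries. Of 18 markers of erythroid cells and megakaryocytes, by contrast, 15 were at 10 CPM or more in each mutant mRNA library and 16 in each wild-type mRNA library, and 1 of the 18 had no mRNA count in any library. HBG2, a fetal globin gene, averaged 494 ± 18.1 CPM in mutant and 514 ± 13.8 CPM in wild-type mRNA libraries (SD, n = 2 each). Several defining monocyte markers named above were thus at 0 beside expressed globin genes, which goes against the monocytic label, and the cells are called by their genotypes below. DNMT3A itself had 241 and 244 CPM in mutant mRNA libraries, against 291 and 294 CPM in wild-type mRNA libraries (log2 fold change -0.27, edgeR adjusted p = 4.3e-06). Counts per gene pool the introduced and the endogenous DNMT3A, so this value does not check the genotype.

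The genes are compact. All 10 span less than the median of 30103 bases over the 10621 tested genes with a position, and 4 of them lie on chromosome 19. In GRCh38, JUN (ENSG00000177606) lies at chr1:58780791-58784047, JUNB (ENSG00000171223) at chr19:12791486-12793315 and JUND (ENSG00000130522) at chr19:18279694-18281622. FOS (ENSG00000170345) lies at chr14:75278828-75282230, FOSB (ENSG00000125740) at chr19:45467996-45475179, FOSL1 (ENSG00000175592) at chr11:65892049-65900545 and FOSL2 (ENSG00000075426) at chr2:28392858-28417317. EGR1 (ENSG00000120738) lies at chr5:138465479-138469303, IER2 (ENSG00000160888) at chr19:13150411-13154911 and ZFP36L2 (ENSG00000152518) at chr2:43222402-43226606. JUNB and IER2 are separated by 357096 bases. JUNB overlaps HOOK2 over 865 bases, and without a stated strand setting reads from the shared stretch cannot be told apart. HOOK2 held 124 and 88 counts in mutant mRNA libraries, against 94 and 127 counts in wild-type mRNA libraries.

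The promoters of the 3 JUN family genes, whose mRNAs were all lower in mutant cells, and of EGR1, whose mRNA was higher, are shown from the RefSeq tables (GRCh38.p14). Each runs from 250 bases before to 50 bases after the annotated start, 5′ to 3′ on the strand of the gene. Capitals mark every match, on either strand, to the motifs searched: CRE (TGACGTCA), TRE (TGANTCA), CArG box, GC box (GGGCGG), EGR1 site (GCGGGGGCG), CCAAT box (CCAAT) and TATA box (TATAAA).
JUN promoter, chr1:58783998-58784297, minus strand: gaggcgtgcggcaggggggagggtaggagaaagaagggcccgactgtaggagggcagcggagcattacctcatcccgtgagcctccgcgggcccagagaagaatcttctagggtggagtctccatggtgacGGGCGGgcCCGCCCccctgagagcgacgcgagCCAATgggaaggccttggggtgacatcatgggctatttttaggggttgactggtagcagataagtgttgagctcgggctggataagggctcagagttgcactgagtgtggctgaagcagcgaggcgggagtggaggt
JUNB promoter, chr19:12791236-12791535, plus strand: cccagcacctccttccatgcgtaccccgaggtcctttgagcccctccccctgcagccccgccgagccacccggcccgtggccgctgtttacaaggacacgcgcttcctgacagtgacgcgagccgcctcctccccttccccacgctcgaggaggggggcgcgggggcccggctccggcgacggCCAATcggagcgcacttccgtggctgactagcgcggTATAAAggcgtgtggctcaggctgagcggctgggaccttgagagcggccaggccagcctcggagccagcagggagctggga
JUND promoter, chr19:18281573-18281872, minus strand: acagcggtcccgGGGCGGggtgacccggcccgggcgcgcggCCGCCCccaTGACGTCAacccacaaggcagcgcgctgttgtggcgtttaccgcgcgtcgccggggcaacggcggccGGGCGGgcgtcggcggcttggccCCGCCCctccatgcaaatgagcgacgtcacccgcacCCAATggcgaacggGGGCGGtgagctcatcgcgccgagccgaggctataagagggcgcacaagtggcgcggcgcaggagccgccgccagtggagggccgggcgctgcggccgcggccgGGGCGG
EGR1 promoter, chr5:138465229-138465528, plus strand: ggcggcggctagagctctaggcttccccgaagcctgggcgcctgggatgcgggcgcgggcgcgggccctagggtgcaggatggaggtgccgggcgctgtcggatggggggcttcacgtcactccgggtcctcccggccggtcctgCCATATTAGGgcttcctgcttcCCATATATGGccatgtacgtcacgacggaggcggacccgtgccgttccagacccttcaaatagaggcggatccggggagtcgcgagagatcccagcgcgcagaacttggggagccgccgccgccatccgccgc
The EGR1 promoter held 2 CArG boxes, the motif that SRF binds, starting at -105 and -83 from the start site. Of the 35116 RefSeq promoters of this length, 1.29% held one. The JUND promoter held a full CRE at -200, a motif found in 1.85% of promoters. A CCAAT box stood at -87 in the JUN promoter, at -67 in the JUNB promoter and at -74 in the JUND promoter, and 34.6% of all promoters have one. Of the 8 genes with an entry (FOSL1 and ZFP36L2 had none), 6 held a GC box (45% of all promoters), FOSL2 alone held a TRE (7.71%), and JUNB, FOS and FOSB held a TATA box (11.5%). None of the 8 held the EGR1 site, against 5.07% of all promoters. The promoters were 62% to 77% G and C, above the median of 58.7% over all promoters. These matches describe the letters in the window and are not binding sites.

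Mutant cells had less mRNA of all 3 JUN family genes, of IER2 and of ZFP36L2, and more mRNA of EGR1, while no FOS family mRNA passed the test. Of the 10 genes tested, 6 were called by edgeR's quasi-likelihood test at an adjusted p under 0.05, 1 higher and 5 lower in mutant cells, where 37.7% of all 10756 genes tested were called. Over all genes 18.9% were called higher and 18.9% lower. The median log2 fold change of the 10 genes was -0.27, beside -0.002 over all genes. In footprints 8 genes could be tested and 5 were called, 1 higher and 4 lower, where 21.2% of 9181 genes were called (10.3% higher and 11% lower). In footprints per mRNA, the interaction of genotype and assay, 3 of 8 were called, 1 higher and 2 lower, where 4.11% of 9166 genes were called (1.78% higher and 2.33% lower). If a variation of 10% between replicates was assumed and edgeR's likelihood ratio test used, JUND alone of the 6 kept its mRNA call. The others then had edgeR adjusted p from 0.0623 (ZFP36L2) to 0.328 (JUNB). The plot of fold changes sets the 3 comparisons side by side.

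**Figure D1:**
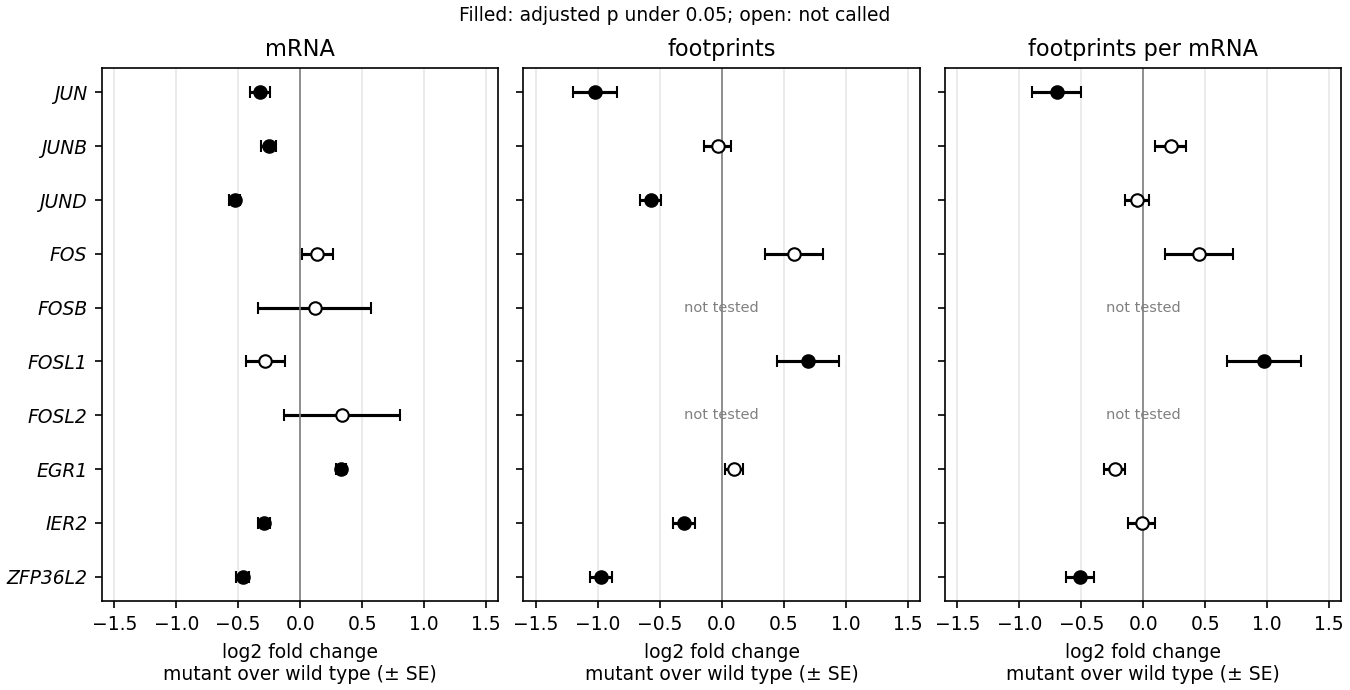
Log2 fold change of mutant over wild type with its standard error for each gene in mRNA, footprints and footprints per mRNA, with filled points for an adjusted p under 0.05. All 3 JUN family genes lie below 0 in mRNA, and JUN and ZFP36L2 also lie below 0 in footprints per mRNA, where FOSL1 lies above it.

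JUND encodes the JUN family member that is usually present without stimulation. Its mRNA stood at 438 and 462 CPM in mutant libraries, against 636 and 659 CPM in wild-type libraries. The groups did not overlap, and 4.10% of all tested genes had a lower fold change. The log2 fold change was -0.53 (SE 0.043, edgeR adjusted p = 7.4e-31), and it was called under all 11 alternatives run, with adjusted p up to 0.0284. Footprints followed, with 270.0 and 328 CPM in mutant libraries, against 396 and 472 CPM in wild-type libraries. JUND footprints fell by 0.57 on the log2 scale (SE 0.081, edgeR adjusted p = 1.2e-08). Without mutant footprint replicate 1 this difference was -0.41 and no longer passed (edgeR adjusted p = 0.1004, the highest over 11 alternatives). Footprints per JUND mRNA differed by -0.05 (SE 0.097, edgeR adjusted p = 0.859) and did not pass.

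JUN is the founding member of the family and the strongest activator among its 3 proteins. JUN mRNA was 85.0 and 86.4 CPM in mutant libraries, against 108 and 107 CPM in wild-type libraries, a log2 fold change of -0.32 (SE 0.080, edgeR adjusted p = 0.00034). The 4 values fell into separate groups with little spread within each. In footprints the gap was wider: 41.9 and 37.8 CPM in mutant libraries, against 79.9 and 83.3 CPM in wild-type libraries. Behind these stand 40 and 23 footprint counts in mutant libraries, against 126 and 161 counts in wild-type libraries. JUN footprints fell by 1.02 on the log2 scale (SE 0.178, edgeR adjusted p = 3.6e-06), and 1.00% of all tested genes had a lower value. This call was kept in each of the 10 alternatives that gave JUN an adjusted p, the highest being 0.0246. Footprints per JUN mRNA fell by 0.70 on the log2 scale (SE 0.199, edgeR adjusted p = 0.0262). That interaction was kept in 10 of 15 alternatives and lost in the rest, with edgeR adjusted p of 0.0886 without wild-type footprint replicate 2, 0.198 without mutant footprint replicate 1 and 0.157 without mutant footprint replicate 2, DESeq2 adjusted p of 0.135, and edgeR adjusted p of 0.716, the highest, at an assumed variation of 10%.

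JUNB can oppose JUN at some target genes and limits myeloid cell growth in mice. Its mRNA was 175 and 189 CPM in mutant libraries, against 212 and 221 CPM in wild-type libraries. The groups did not overlap, and the log2 fold change was -0.25 (SE 0.059, edgeR adjusted p = 0.000155). Footprints overlapped between genotypes, with 157 and 164 CPM in mutant libraries, against 174 and 154 CPM in wild-type libraries (log2 fold change -0.03, SE 0.108, edgeR adjusted p = 0.877). Footprints per JUNB mRNA differed by 0.22 (SE 0.125, edgeR adjusted p = 0.364), so that the difference between its mRNA and footprint results did not itself pass. JUNB has 63 annotated genes within 500 kb, against a median of 31, and fold changes in these libraries were also fitted after removal of their trend with that number. The mRNA difference of JUNB was then -0.09 and did not pass (edgeR adjusted p = 0.255; over 11 alternatives from 2.5e-05 to 0.328), whereas JUN (-0.48) and JUND (-0.41) kept their calls.

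**Figure D2:**
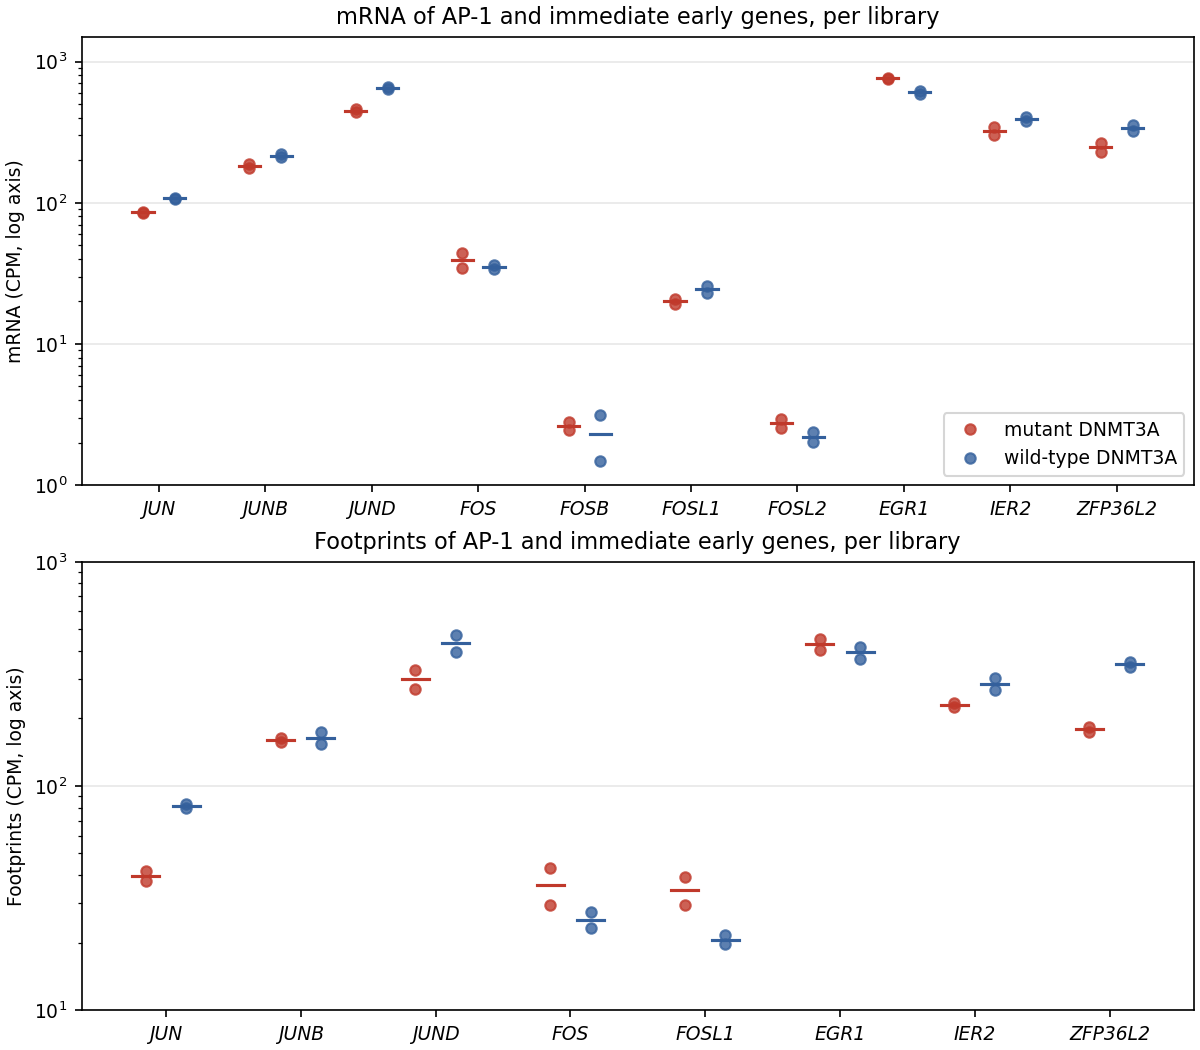
Level of each gene in CPM on a log axis, with 1 point per library and a bar at the mean of the 2 libraries of a group, in mRNA (upper panel) and footprints (lower panel, without FOSB and FOSL2). JUND mRNA reaches 438 and 462 CPM in mutant and 636 and 659 CPM in wild-type libraries, and EGR1 is the one gene whose mRNA was called higher in mutant cells.

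No FOS family gene was called in mRNA. FOS, the classic partner of JUN, had 34.4 and 44.1 CPM of mRNA in mutant libraries, against 34.0 and 36.5 CPM in wild-type libraries. These overlapped (log2 fold change 0.14, SE 0.124, edgeR adjusted p = 0.398). FOS footprints were 42.9 and 29.5 CPM in mutant libraries, against 27.3 and 23.3 CPM in wild-type libraries. Both mutant values were above both wild-type values, but the log2 fold change of 0.59 (SE 0.233) missed the threshold (edgeR adjusted p = 0.0584; over 10 alternatives from 0.0582 to 0.741). Footprints per FOS mRNA differed by 0.45 (SE 0.274, edgeR adjusted p = 0.407).

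FOSL1 encodes FRA1, a FOS relative without the transactivation domain of FOS. FOSL1 mRNA was 19.1 and 20.9 CPM in mutant libraries, against 25.7 and 23.1 CPM in wild-type libraries (log2 fold change -0.28, SE 0.160, edgeR adjusted p = 0.158). Its footprints lay the other way, with 29.3 and 39.4 CPM in mutant libraries, against 21.6 and 19.7 CPM in wild-type libraries. Neither assay showed overlap between genotypes. FOSL1 footprints rose by 0.69 on the log2 scale (SE 0.250, edgeR adjusted p = 0.0341), and footprints per mRNA rose by 0.97 (SE 0.299, edgeR adjusted p = 0.0443). A lower interaction value was found in 99.1% of all tested genes. These are values of a gene at low counts, 28 and 24 footprint counts in mutant libraries against 34 and 38 in wild-type libraries, and both calls were fragile. The footprint call was lost when any 1 of the 4 footprint libraries was left out. The interaction call was kept in 5 of 14 alternatives (edgeR adjusted p up to 0.579). Among the fits that ended the interaction call were those with the density trend removed, with no filter and with any 1 footprint library left out.

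FOSB and FOSL2 were near the limit of detection. FOSB had 11 and 11 mRNA counts in mutant libraries, against 5 and 14 in wild-type libraries, and no footprint count in mutant libraries, against 1 and 2 in wild-type libraries. A floor of 3 counts stands for 3.18 and 4.97 CPM in the mutant footprint libraries, which covers counting error only, so a difference in FOSB footprints was not detectable at this depth. FOSL2, which encodes FRA2, had 13 and 10 mRNA counts in mutant libraries, against 8 and 9 in wild-type libraries. Its footprint counts were 2 and 1 in mutant libraries, against 6 and 4 in wild-type libraries. The mRNA log2 fold changes were 0.12 for FOSB (SE 0.458, edgeR adjusted p = 0.870) and 0.34 for FOSL2 (SE 0.466, edgeR adjusted p = 0.602).

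Of the counts that fell on the 7 JUN and FOS family genes, the JUN family held 92.2% and 91.3% in mutant mRNA libraries, against 93.8% and 93.8% in wild-type mRNA libraries. In footprints it held 86.3% and 88.3% in mutant libraries, against 92.4% and 93.9% in wild-type libraries. Both mutant values were below both wild-type values in each assay, by -2.04 percentage points in mRNA and by -5.88 percentage points in footprints. An exact permutation test, two-sided, gave p = 0.333 for each, the smallest p that 2 against 2 libraries allow. Longer mRNAs collect more reads, so the shares are shares of counts and not of molecules. With all 10 genes as the whole, the differences were -6.93 and -3.29 percentage points.

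EGR1, a zinc finger factor switched on through SRF and known for its part in monocyte differentiation, was the 1 gene of the set whose mRNA was called higher. EGR1 mRNA was 762 and 759 CPM in mutant libraries, against 618 and 593 CPM in wild-type libraries. The groups were well apart for a log2 fold change of 0.33 (SE 0.041, edgeR adjusted p = 8.0e-14), and 83.6% of tested genes had a lower value. EGR1 footprints were 406 and 451 CPM in mutant libraries, against 369.9 and 418 CPM in wild-type libraries, which overlap (log2 fold change 0.10, SE 0.073, edgeR adjusted p = 0.348). Footprints per EGR1 mRNA differed by -0.23 (SE 0.084, edgeR adjusted p = 0.108). This value passed in 1 of 15 alternatives, without wild-type footprint replicate 1 (log2 fold change -0.31, edgeR adjusted p = 0.0230; the highest over the alternatives was 0.999).

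IER2, a small nuclear protein induced with FOS and EGR1, had 303 and 342 CPM of mRNA in mutant libraries, against 381 and 406 CPM in wild-type libraries. Its footprints were 235 and 225 CPM in mutant libraries, against 268 and 302 CPM in wild-type libraries. The genotypes did not overlap in either assay. IER2 mRNA fell by 0.29 on the log2 scale (SE 0.049, edgeR adjusted p = 3.5e-08) and its footprints by 0.31 (SE 0.089, edgeR adjusted p = 0.00729). The footprint call was kept in 5 of 11 alternatives, with adjusted p up to 0.328 over all. It was lost without mutant footprint replicate 1, without mutant footprint replicate 2 and without wild-type footprint replicate 2. DESeq2, an assumed variation of 10% and removal of the density trend also ended it. Footprints per IER2 mRNA differed by -0.01 (SE 0.107, edgeR adjusted p = 0.970).

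ZFP36L2 promotes the decay of mRNAs with AU-rich elements and is known in mice to be needed for haematopoietic stem cells. ZFP36L2 mRNA was 231 and 267 CPM in mutant libraries, against 325 and 356 CPM in wild-type libraries. Its footprints were 174 and 184 CPM in mutant libraries, against 341 and 357 CPM in wild-type libraries. The gap was larger than the spread within groups in both assays. The log2 fold change was -0.46 in mRNA (SE 0.052, edgeR adjusted p = 7.2e-17) and -0.97 in footprints (SE 0.091, edgeR adjusted p = 2.1e-16), and 1.24% of tested genes had a lower footprint value. Footprints per ZFP36L2 mRNA fell by 0.51 (SE 0.114, edgeR adjusted p = 0.00197). The footprint call was kept in all 11 alternatives, and the interaction call was lost without mutant footprint replicate 1 (edgeR adjusted p = 0.124) and at an assumed variation of 10% (edgeR adjusted p = 0.770, the highest over 15 alternatives).

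The level of footprints relative to mRNA can be read within each footprint library, as the log2 of footprint CPM over the mean mRNA CPM of the same genotype. For JUN this level was -1.03 and -1.18 in mutant libraries, against -0.42 and -0.37 in wild-type libraries. JUN thus stood at percentiles 10.7 and 8.55 of all genes in mutant libraries, against 29.9 and 32.0 in wild-type libraries. ZFP36L2 stood at percentiles 26.1 and 29.9 in mutant libraries, against 48.4 and 51.8 in wild-type libraries. FOSL1 lay on the other side, at percentiles 76.4 and 89.8 in mutant libraries, against 40.0 and 34.4 in wild-type libraries. EGR1 was low in both genotypes, at percentiles 13.6 and 18.5 in mutant libraries, against 20.6 and 25.5 in wild-type libraries. These levels are not corrected for length, and the counted feature (exon or coding sequence) is not stated.

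**Figure D3:**
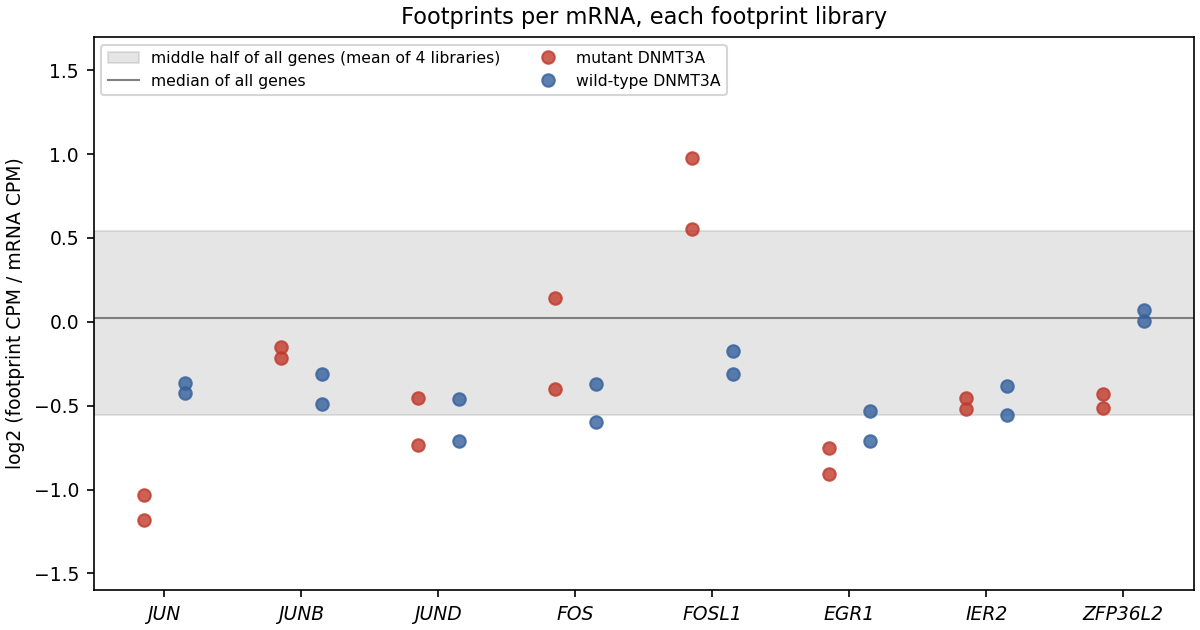
Log2 of footprint CPM over mRNA CPM for the 8 genes measured in both assays, with 1 point per footprint library. The grey band runs from the lower to the upper quartile of all genes, averaged over the footprint libraries, and the grey line is their median. JUN and ZFP36L2 lie lower in mutant than in wild-type libraries and FOSL1 lies higher.

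Some marker sums also differed between genotypes in the same libraries, while others overlapped. The 18 erythroid and megakaryocyte markers summed to 2235 to 2296 CPM in mutant and 2702 to 2740 CPM in wild-type mRNA libraries. The 10 epithelial markers summed to 959.5 to 963 CPM in mutant and 1223 to 1254 CPM in wild-type mRNA libraries. Most of that sum came from KRT8, KRT18 and KRT19, which code for simple keratins. EPCAM and CLDN7 lay higher in mutant mRNA libraries. Of the 6 epithelial markers tested in mRNA, 1 was called higher and 4 lower, where 18.9% of all genes were called in each direction. Monocyte and macrophage markers summed to 426 to 455 CPM in mutant and 409.8 to 420.1 CPM in wild-type mRNA libraries. FCGR2A held the largest part of that sum, and SPI1 of the same list lay lower in mutant mRNA libraries. T and NK cell marker sums overlapped, at 69.4 to 76.7 CPM in mutant and 66.2 to 73.5 CPM in wild-type mRNA libraries. Only 1 of these 14 markers, CD3D, reached 10 CPM, and no B cell marker of 9 did. The part of these shifts in the results on AP-1 genes was not tested. In bulk samples, fewer cells of a type and less RNA per cell cannot be told apart.

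Genes that respond to the same signals were read from a list of 37 other immediate early and early response genes. In mRNA 29 were tested, and 16 were lower and none higher in mutant cells, where 18.9% of all genes were called lower. Their median log2 fold change was -0.28, beside -0.002 over all genes. The 4 with the smallest p were PIM1, ID1, IER3 and IER5. PIM1, a survival kinase, averaged 1021 ± 44.9 CPM in mutant and 1227 ± 45.7 CPM in wild-type mRNA libraries (SD, n = 2 each). ID1, an inhibitor of basic helix-loop-helix factors, had 60.5 and 73.9 CPM in mutant libraries, against 87.8 and 95.7 CPM in wild-type libraries. IER3, an early response gene linked to survival, had 51.3 and 52.5 CPM in mutant libraries, against 78.1 and 67.9 CPM in wild-type libraries. The mRNA log2 fold changes were -0.27 for PIM1 (edgeR adjusted p = 3.2e-11), -0.46 for ID1 (edgeR adjusted p = 1.5e-06), -0.48 for IER3 (edgeR adjusted p = 1.0e-05) and -0.36 for IER5 (edgeR adjusted p = 0.000167). The count of lower genes depended on the fit: it was 8 without wild-type mRNA replicate 2, 9 without mutant mRNA replicate 1, 4 by DESeq2 (with 10 genes given no adjusted p) and 0 at an assumed variation of 10%. The list was chosen with earlier results of these data known and is a description.

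In footprints 27 of these genes were tested, with 1 higher and 5 lower, a share near the 21.2% called over all genes. ID3, a relative of ID1, had 14.7 and 21.3 CPM of footprints in mutant libraries, against 35.5 and 37.2 CPM in wild-type libraries (log2 fold change -1.07, SE 0.265, edgeR adjusted p = 0.00125). ID1 footprints fell by 0.84, RHOB footprints by 0.86 and PIM1 footprints by 0.31 on the log2 scale. RHOB encodes a small GTPase. Its call was lost without wild-type footprint replicate 2 or mutant footprint replicate 1, and that of ID1, ID3 and PIM1 without mutant footprint replicate 1 (highest edgeR adjusted p over the alternatives 0.606 for RHOB, 0.0996 for ID1, 0.222 for ID3 and 0.253 for PIM1). Footprints per mRNA were called for 1 of 27 genes, near the 4.11% of all genes: BTG2, an antiproliferative cofactor of deadenylation, rose by 0.82 (SE 0.231, edgeR adjusted p = 0.0244). BTG2 mRNA was 36.7 and 40.3 CPM in mutant libraries, against 47.0 and 46.4 CPM in wild-type libraries, while its footprints were 51.3 and 52.5 CPM in mutant libraries, against 40.0 and 32.1 CPM in wild-type libraries. The interaction call of BTG2 was kept in 9 of 14 alternatives and lost on leaving out mutant mRNA replicate 1 or any footprint library other than wild-type replicate 1, and at an assumed variation of 10% (edgeR adjusted p = 0.625, the highest).

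**Figure D4:**
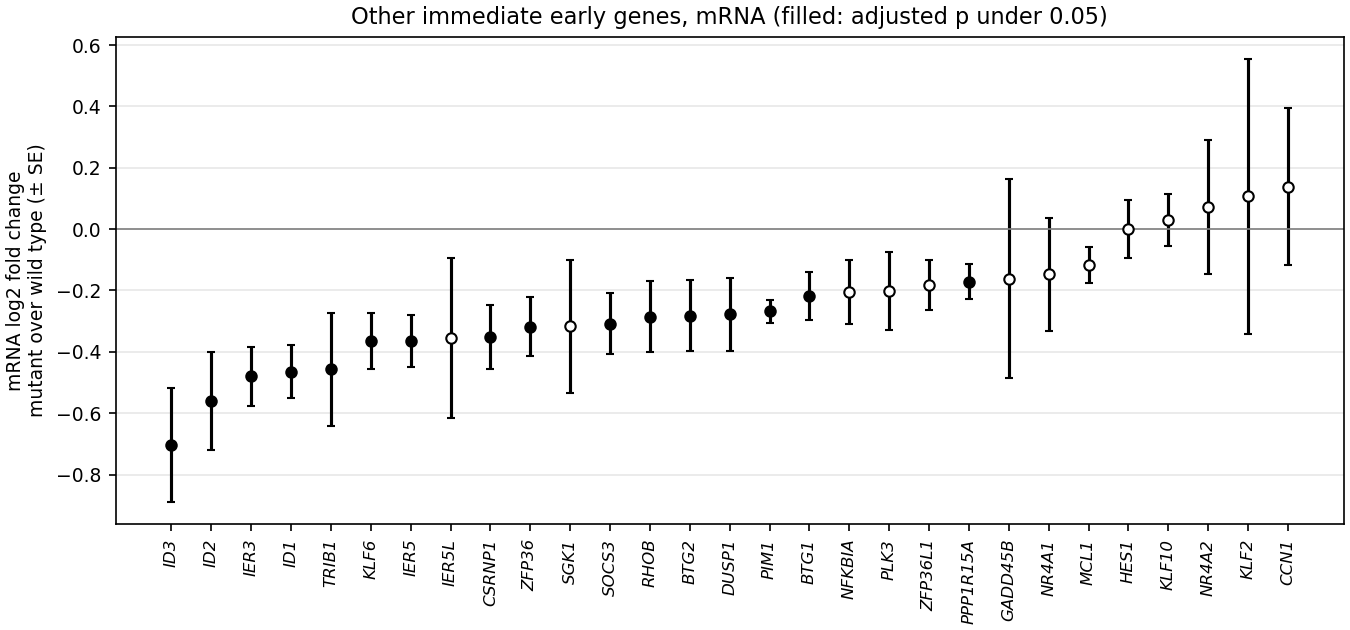
mRNA log2 fold change of mutant over wild type for the other immediate early and early response genes tested, with standard errors and filled points for an adjusted p under 0.05. The 16 called genes all lie below 0, and the other 13 were not called.

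Calls in the other parts of the pathway were read against those of all genes, which were 37.7% in mRNA (18.9% higher and 18.9% lower) and 21.2% in footprints (10.3% higher and 11% lower). Among 16 tested dimer partners with a leucine zipper, 3 were higher and 4 lower in mutant mRNA, near the rate of all genes. Without wild-type mRNA replicate 1 there was 1 of each, and DESeq2 (7 genes given no adjusted p) and an assumed variation of 10% each gave 0. The small MAF genes MAFG and MAFK fell by 0.61 and 0.65 on the log2 scale. NFE2L2 and BACH1, whose proteins pair with small MAFs, rose by 0.23 and 0.24. NFE2L2 footprints overlapped between genotypes. In footprints 13 were tested, with 3 higher and 2 lower, and 0 without mutant footprint replicate 1, by DESeq2 (9 given no adjusted p) or at an assumed variation of 10%. In footprints MAFG fell by 0.89 and the erythroid factor NFE2 by 0.34, and ATF2 rose by 0.52 and NFE2L3 by 0.75. Of these mRNA calls, that of NFE2L2 was lost without mutant mRNA replicate 1 and those of BACH1 and MAFK without wild-type mRNA replicate 1 (highest edgeR adjusted p over the alternatives 0.377, 0.345 and 0.0889). All 4 footprint calls were lost without mutant footprint replicate 1, and those of MAFG and NFE2L3 also without mutant footprint replicate 2. That of NFE2L3 was also lost without wild-type footprint replicate 2, and those of ATF2 and NFE2L3 with the density trend removed. Over the alternatives the footprint log2 fold change ran from -0.48 to -0.16 for NFE2 and from -0.94 to -0.76 for MAFG. It ran from 0.32 to 0.63 for ATF2 and from 0.65 to 0.81 for NFE2L3. Of 24 tested MAP kinase cascade genes, 5 were higher and 6 lower in mRNA, also near the rate of all genes. The lower genes numbered 2 on leaving out mutant mRNA replicate 1 and 2 on leaving out wild-type mRNA replicate 2, and 1 by DESeq2 or with the density trend removed, and neither direction held a call at an assumed variation of 10%. SOS1 rose by 0.38 and NRAS by 0.48, and MAP2K7, a kinase upstream of JNK, fell by 0.52. NRAS footprints overlapped between genotypes (log2 fold change 0.05). Of 22 MAP kinase cascade genes tested in footprints, 1 was higher and 1 lower, a smaller share than the 21.2% of all genes. Footprints per mRNA were called for 1 of 22, near the 4.11% of all genes. MAP2K2, which encodes the kinase MEK2, was the gene called lower in both. It had 59.7 and 57.5 CPM of footprints in mutant libraries, against 106 and 109 CPM in wild-type libraries. Its footprints fell by 0.87 (SE 0.152, edgeR adjusted p = 3.9e-06) and its footprints per mRNA by 0.67 (SE 0.171, edgeR adjusted p = 0.00960). This interaction was lost without mutant footprint replicate 1, without mutant footprint replicate 2 and at an assumed variation of 10% (edgeR adjusted p up to 0.681).

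SRF, the factor that binds CArG boxes such as those in the EGR1 promoter, had 54.0 and 59.9 CPM of mRNA in mutant libraries, against 74.5 and 78.2 CPM in wild-type libraries (log2 fold change -0.43, SE 0.094, edgeR adjusted p = 4.4e-05). Its partner ELK1 fell by 0.32 and the coactivator CREBBP by 0.25, while CREB1 had 30.1 and 26.3 CPM in mutant libraries, against 19.8 and 14.1 CPM in wild-type libraries, a rise of 0.77 (SE 0.162, edgeR adjusted p = 2.0e-05). In all, 1 of 12 tested SRF, ETS and CREB activators was higher and 4 were lower in mRNA, where 18.9% of all genes were called in each direction. With the density trend removed there were 3 higher and 4 lower. DESeq2 gave 0 higher and 1 lower (3 given no adjusted p), and an assumed variation of 10% gave 1 higher and 0 lower. The calls of ELK1 and CREBBP were lost by DESeq2 and at the assumed variation of 10%. Leaving out wild-type mRNA replicate 2 ended the CREB1 call (edgeR adjusted p = 0.0513). In footprints 10 of these activators were tested and 0 were called, where 21.2% of all genes were called. CREB1 footprints lay opposite to its mRNA, at 12.6 and 16.4 CPM in mutant libraries, against 17.1 and 19.1 CPM in wild-type libraries. SRF footprints lay lower, at 25.1 and 26.3 CPM against 34.3 and 36.2 CPM, and those of ELK1 and CREBBP overlapped between genotypes. Of 13 tested feedback and turnover genes, 3 were higher and 2 lower in mRNA, a share like the 37.7% of all genes. ITCH and COP1, which encode ubiquitin ligases that target JUN, rose by 0.44 and 0.29, and the signalling inhibitors SPRY4 and SPRED2 fell by 0.38 and 0.23. ITCH footprints rose by 0.62, the 1 call among 11 of these genes tested in footprints, where 21.2% of all genes were called. COP1 footprints overlapped, at 70.1 and 78.8 CPM in mutant libraries, against 77.4 and 69.3 CPM in wild-type libraries. The mRNA calls of COP1 and SPRY4 were lost without wild-type mRNA replicate 2, that of SPRY4 also without mutant mRNA replicate 1, and that of SPRED2 on leaving out any mRNA library other than mutant replicate 2 (highest edgeR adjusted p over the alternatives 0.278, 0.222 and 0.403). The ITCH footprint call was lost without wild-type footprint replicate 2 or either mutant footprint library (highest edgeR adjusted p 0.209). Among 19 AU-rich decay genes, 7 were higher and 4 lower, where 18.9% of all genes were called in each direction. DESeq2 gave 5 higher and 1 lower, and an assumed variation of 10% gave 0 of each. In mRNA KHSRP fell by 0.27, and DCP2, HNRNPD and CNOT7 rose by 0.36, 0.32 and 0.51. Footprints of KHSRP and CNOT7 overlapped between genotypes. In footprints 5 of the 19 were higher and 1 lower, where 10.3% of all genes were called higher and 11% lower, and 0 were called without mutant footprint replicate 1, by DESeq2 (11 given no adjusted p) or at an assumed variation of 10%. Called higher were DCP2, up by 0.40, CNOT1 by 0.24, CNOT10 by 0.42 and HNRNPD by 0.31. These 4 footprint calls were lost without mutant footprint replicate 1, those of CNOT1 and HNRNPD also without wild-type footprint replicate 2, and that of CNOT1 without mutant footprint replicate 2 (highest edgeR adjusted p from 0.188 for DCP2 to 0.625 for HNRNPD). Of 9 tested textbook AP-1 targets, 1 was called: TGFB1 was lower by -0.12 in mRNA (edgeR adjusted p = 0.0438), and the call was kept in 4 of 11 alternatives, of the single libraries only on leaving out mutant mRNA replicate 2. None of 8 was called in footprints.

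For genes called in mRNA whose counts averaged 100 or more in both assays, the 2 genes with the nearest pattern of log2 CPM over the 8 libraries were found by Euclidean distance after centring each gene. They were PI4KA (0.136) and MOV10 (0.148) for JUNB, and MID1IP1 (0.237) and SLC4A2 (0.303) for JUND. GTF2H1 (0.165) and ELF2 (0.202) were nearest to EGR1, and DPH2 (0.160) and GATA2 (0.179) to IER2. SLC27A4 (0.228) and ID1 (0.280) were nearest to ZFP36L2. These distances rest on 4 groups of 2 libraries that also differ in depth.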

How the data were processed

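The deposited values are whole-number read counts per Ensembl gene, not normalized, 1 file per library. The labels' protocols describe oligo(dT) priming for mRNA and RNase I digestion, size selection and rRNA depletion for footprints. Per the submitters' processing notes, the tools were featureCounts, STAR, Bowtie2, Trimmomatic and cutadapt and the build GRCh38, with no role given for each. The annotation release, strand setting, counted feature and handling of multi-mapping reads are not stated, so reads shared by overlapping genes cannot be assigned with certainty. Of 20453 gene IDs, 20407 matched a symbol.

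Groups and replicate numbers came from the sample titles. Mutant was compared with wild type by edgeR 4.0.16 in R 4.3.3 (TMM factors within each assay, filterByExpr, glmQLFit with legacy=FALSE, glmQLFTest) over all genes, with Benjamini-Hochberg adjustment and calls under 0.05. The test of footprints per mRNA was the genotype by assay interaction over all 8 libraries. The fitted common biological coefficient of variation (BCV) between replicates was 2.22% in mRNA and 1.82% in footprints. Each standard error was derived as the size of the log2 fold change divided by the square root of the F statistic of its test. Standard errors include counting error. Reads carry no molecular identifiers, so they need not be independent molecules. Alternatives were other size factors (RLE), no filter, DESeq2 1.42.0, an assumed BCV of 10%, legacy=TRUE and a replicate block. Further ones were removal of the trend with the number of genes within 500 kb, and each library left out. The fit at an assumed BCV of 10% used edgeR's likelihood ratio test in place of the quasi-likelihood test. The procedure was also run on simulated counts whose variation between replicates was close to the fitted one. That run cannot show how the calls behave if the true variation is larger.

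Named were the 10 genes, DNMT3A, up to 4 called genes with the smallest p per pathway list and comparison, and the 2 genes nearest in pattern. Marker sums and individual markers describe the cells. The genes and lists were chosen with earlier results of these data known. A few genes are named nowhere in the text and are not reported here. No protein sequence was used here.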

Additional observations from a re-analysis of the deposited data

How the results depend on the processing

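The limits are the 2 libraries per group, the shallow mutant footprint libraries and the very small spread between replicates on which calls rest. Over all genes the mRNA calls (4060) numbered 1467 by DESeq2, 313 at an assumed BCV of 10% and 2281 to 3839 with a library left out. The footprint calls (1950) numbered 397, 288 and 273 to 1807, and the calls in footprints per mRNA (377) numbered 123, 13 and 136 to 446. Of the AP-1 and immediate early genes, 6 were called in mRNA, with 1 (JUND) at a BCV of 10% and 6 with any library left out. In footprints 5 were called, with 2 by DESeq2, 3 at a BCV of 10% and 2 to 4 with a library left out. In footprints per mRNA 3 were called, with 1, 0 and 0 to 3. DESeq2 gave no adjusted p for 3 of these genes in each single assay and for 2 in the interaction. Higher calls at BCV 10% were 178 of 313 in mRNA, and by DESeq2 133 of 397 in footprints. At an unadjusted p under 0.05, 4905, 3013 and 1560 genes passed.

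The difference in the JUN family's share was -6.93 (mRNA) and -3.29 (footprints) percentage points with all 10 genes as the whole. At a BCV of 10% the mRNA adjusted p was 0.218 for JUN, 0.328 for JUNB, 0.166 for EGR1, 0.236 for IER2 and 0.0623 for ZFP36L2. Signs that turned belonged to values that did not pass. FOS mRNA ran from -0.037 to 0.32 and FOSB mRNA from -0.25 to 0.82 with a library left out. JUNB footprints were 0.10 without the density trend and -0.13 to 0.048 with a library left out. DNMT3A footprints were 0.0037 by DESeq2, 0.0050 at a BCV of 10%, 0.017 with the replicate block and -0.079 to 0.084 with a library left out. Footprints per mRNA ran from -0.17 to 0.11 for JUND and from -0.10 to 0.079 for IER2. The cause was not tested. RLE factors and legacy=TRUE changed no call of a named gene.

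The replicate numbers pair nothing in the labels. Deviations of same-numbered libraries correlated at 0.0912 in mRNA (7009 genes) and 0.142 in footprints (3071 genes). With the number as a replicate block, 6, 5 and 3 of the genes were called, and 4168, 2074 and 495 of all genes.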
